A study of Mus musculus with 23 samples.

Results

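The mouse mitochondrial genome encodes 37 genes, and all 37 were present in the count table as the symbols beginning with mt-, out of 55487 genes in all. They were chosen by that name alone, without reference to their values. They comprised 13 mRNAs, 2 rRNAs (mt-Rnr1 and mt-Rnr2) and 22 tRNAs. Of the mRNAs, 7 encode subunits of complex I (mt-Nd1, mt-Nd2, mt-Nd3, mt-Nd4, mt-Nd4l, mt-Nd5 and mt-Nd6), 1 of complex III (mt-Cytb), 3 of complex IV (mt-Co1, mt-Co2 and mt-Co3) and 2 of complex V (mt-Atp6 and mt-Atp8). After low counts were removed 21 members could be tested, namely the 13 mRNAs, the 2 rRNAs and 6 of the tRNAs.

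Gene expression was measured by RNA sequencing of whole jejunum, freed of fat and Peyer's patches, in 23 libraries. The 12 Cpa3+/+ libraries came from wild type mice. The 11 Cpa3Cre/+ libraries came from mice that the labels call mast cell-deficient and that carry Cre in the locus of Cpa3, the carboxypeptidase of mast cell granules, so that Cre is driven by the Cpa3 promoter. Naive mice were given no treatment in the labels (3 Cpa3+/+ and 2 Cpa3Cre/+ libraries). Immunized mice received 25 µg of ovalbumin with 2 mg of the adjuvant alum intraperitoneally on days 0 and 14 (2 and 2 libraries). Challenged mice were immunized in the same way and from day 20 could choose between plain water and water containing 20% egg white and 8% sugar. Their jejunum was taken on challenge day 1 (3 and 2 libraries), day 3 (2 and 2) or day 5 (2 and 3). Every group on the challenge was thus also immunized, and egg white contains ovalbumin. The libraries were from 18 female and 5 male mice. The male libraries were Cpa3+/+ naive replicate 3 and Cpa3Cre/+ naive replicate 2, immunized replicate 1, day 1 replicate 2 and day 3 replicate 2. Sex was thus uneven between the genotypes, and day 5 was all female. Age and strain background are not in the sources used here, and nothing in them says whether replicates are different animals. The p-values therefore speak only of the spread among replicate libraries, part of which may be technical.

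Mitochondrial DNA is a small circle that is transcribed from both strands into long precursors. The tRNAs lie between the mRNAs and rRNAs, and their excision releases the single transcripts. All 13 proteins are core subunits of the oxidative phosphorylation (OXPHOS) complexes, which are completed by subunits imported from the cytosol. The rRNAs belong to the mitochondrial ribosome. In the jejunum, absorptive enterocytes and the smooth muscle of the wall are both rich in mitochondria. Jejunum RNA mixes these cells, and in such bulk samples fewer cells of a type and less RNA per cell cannot be told apart.

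Nuclear DNA carries copies of parts of the mitochondrial genome, and these bear on how far members can be told apart by sequence. In GENCODE vM21 (GRCm38), 7 unprocessed pseudogenes lie side by side on the minus strand of chromosome 1 between 24611535 and 24616197, a span of 4663 bases, in the order of mt-Co1, mt-Co2, mt-Atp6, mt-Co3, mt-Nd3, mt-Nd4l and mt-Nd4. The first 60 bases of mt-Co3 (subunit of the cytochrome c oxidase core) and of its copy Gm28437 are shown because no base separates them.
mt-Co3, chrM:8607-8666, plus strand: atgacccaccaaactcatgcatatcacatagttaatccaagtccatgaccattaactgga
Gm28437, chr1:24613912-24613971, minus strand: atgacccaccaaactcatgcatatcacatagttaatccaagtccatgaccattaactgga

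The next pairs are shown because each holds the only mismatch found in the aligned part, marked by the capital. For mt-Nd3 it is T3C and for mt-Co1 A1066T, with the mitochondrial base first and positions counted from the 5′ end of the mitochondrial gene.
mt-Nd3, chrM:9459-9518, plus strand: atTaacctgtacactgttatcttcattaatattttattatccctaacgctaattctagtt
Gm28438, chr1:24613060-24613119, minus strand: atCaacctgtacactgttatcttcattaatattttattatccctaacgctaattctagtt
mt-Co1, chrM:6390-6449, plus strand: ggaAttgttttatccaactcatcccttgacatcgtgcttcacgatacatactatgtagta
Gm29216, chr1:24616129-24616188, minus strand: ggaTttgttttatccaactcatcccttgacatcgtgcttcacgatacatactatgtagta

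The aligned parts of mt-Co2 with Gm28661 (681 bases), mt-Atp6 with Gm10925 (678), mt-Co3 with Gm28437 (783), mt-Nd4l with Gm10222 (294) and mt-Nd4 with Gm28439 (876) were 100% identical. Gm28439 covers 63.6% of mt-Nd4 and Gm29216 31.3% of mt-Co1, and each of the others covers about the whole of its gene. As a measure of what a short read can tell apart, each member was cut into all of its 50-base words and these were looked up in the other annotated transcripts. The share of words found elsewhere was 100% for mt-Co2, 99.9% for mt-Co3, 99.5% for mt-Atp6, 98.8% for mt-Nd4l and 98.0% for mt-Nd3. It was 62.2% for mt-Nd4, 51.1% for mt-Co1, 8.19% for mt-Nd2, 7.61% for mt-Nd5 and 1.04% for mt-Rnr2, and no word was shared for mt-Nd1, mt-Nd6, mt-Cytb, mt-Rnr1 and the tRNAs. No word of mt-Atp8 was shared with an annotated transcript either, but the gene lies in the interval between mt-Co2 and mt-Atp6, which has the same length (233 bases) between their copies on chromosome 1. The sequence of that interval on chromosome 1 was not analysed here. The length of the reads, the treatment of reads with several matches and the strand setting of the counting are not given in the sources used here.

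Members also overlap each other. The longest overlap, 43 bases, joins mt-Atp8 and mt-Atp6, the membrane subunits of ATP synthase, and the next among genes on the same strand, 7 bases, joins mt-Nd4l and mt-Nd4. Both pairs are read from shared mRNAs, and the capitals mark the bases that belong to both genes.
mt-Atp8 and mt-Atp6, chrM:7917-7979, plus strand: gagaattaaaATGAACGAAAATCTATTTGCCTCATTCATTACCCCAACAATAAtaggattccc
mt-Nd4l and mt-Nd4, chrM:10157-10183, plus strand: acctactacaATGCTAAaaattattct

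mt-Nd6, the only mRNA on the minus strand, overlaps the end of mt-Nd5 by 14 bases, where without a known strand setting the reads of each cannot be assigned with certainty.

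Total counts ran from 5.48 M to 19.3 M per library (M for mega, median 13.8 M). Cpa3, which checks the genotype, was at 0.827 to 22.1 CPM (counts scaled to a common library size, per mega counts) in Cpa3+/+ libraries and at 0.101 to 1.51 CPM in Cpa3Cre/+ libraries, and its difference averaged over states (log2 fold change −3.05 ± 0.40 SE) passed the test (adjusted p = 0.0102, edgeR). The genotypes did not overlap in Cpa3 in the immunized and challenged states, but they did in the naive state, where Cpa3Cre/+ replicate 1 (1.07 CPM) lay above Cpa3+/+ replicates 1 and 2 (0.827 and 0.966 CPM), so the check does not separate the naive libraries. Enterocyte markers (10 genes, 0 of them at 0 in all libraries) summed to 9753 to 99405 CPM and smooth muscle markers (6 genes) to 593 to 5723 CPM, with the lowest enterocyte and the highest muscle sum in the same library, Cpa3Cre/+ naive replicate 1. B cell follicle markers (5 genes) ranged from 3.74 to 95.7 CPM and blood markers (5 genes) from 16 to 315 CPM. Pancreatic acinar markers (5 genes, 2.01 to 7.53 CPM) and adipocyte markers (4 genes, 0 to 0.993 CPM) were at or near 0. A pair of libraries stood apart in the members themselves, Cpa3+/+ day 1 replicate 2 in its ratio of the rRNAs and Cpa3Cre/+ day 5 replicate 3 in mt-Nd6, and both were picked out after their values were seen.

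The members together took 4.62% to 10.2% of a library's counts, with a median of 6.26%. In Cpa3+/+ mice the shares were 5.26%, 6.44% and 7.29% in naive, 6.73% and 4.87% in immunized, 6.12%, 8.11% and 5.90% on day 1, 6.06% and 5.39% on day 3, and 6.74% and 7.30% on day 5. In Cpa3Cre/+ mice they were 7.27% and 7.09% in naive, 6.26% and 4.62% in immunized, 5.88% and 5.63% on day 1, 5.93% and 7.63% on day 3, and 8.31%, 10.2% and 5.58% on day 5. The genotypes overlapped in the immunized, day 3 and day 5 states and in the naive state, and on day 1 both Cpa3Cre/+ libraries lay below the 3 Cpa3+/+ libraries. The day 5 libraries of both genotypes lay above the immunized libraries of their genotype except for Cpa3Cre/+ replicate 3. The mean over the group means was 5.62% for immunized and 7.52% for day 5, a difference of 1.90 percentage points (p = 0.1, exact permutation test within genotypes, two-sided, 60 arrangements). It was 2.51 points without Cpa3Cre/+ day 5 replicate 3 (exact permutation p = 0.0556). Immunized libraries were 1.13 points below naive ones (exact permutation p = 0.150), and Cpa3Cre/+ libraries 0.316 points above Cpa3+/+ libraries over all states (permutation p = 0.530, 36000 arrangements). Leaving out 1 library gave −1.60 to −0.671 points for immunization, the smallest without Cpa3+/+ immunized replicate 2, and 0.102 to 0.560 points for genotype, the ends being without Cpa3Cre/+ day 5 replicate 2 and without replicate 3. In all 45 such tests were made, on 9 shares and ratios in 5 comparisons, and none passed after Benjamini-Hochberg adjustment (smallest adjusted p = 0.519, permutation tests). The day 3 comparison has 36 arrangements and cannot give an exact p under 0.0556. The other steps between states have 60 and cannot give one under 0.0167. Adjusted over 45 tests, a single step could not have passed alone, so that none passed says little about the states.

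**Figure D1:**
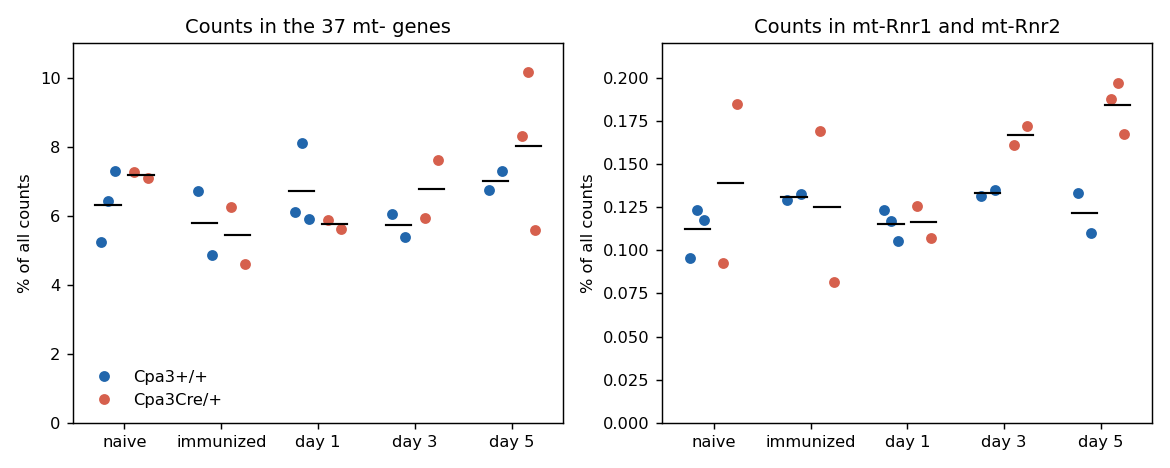
Share of each library's counts (y axes, %) in all 37 mitochondrially encoded genes (left) and in the 2 rRNAs (right), by state (x axis) and genotype (blue Cpa3+/+, red Cpa3Cre/+), with 1 dot per library and a black line at the group mean. Total shares of the groups overlap in most states, and the 3 Cpa3Cre/+ day 5 libraries spread from 5.58% to 10.2%.

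Most of these counts came from a few mRNAs. mt-Co1, mt-Cytb, mt-Nd1, mt-Nd2, mt-Nd4 and mt-Nd5 held 97.2% of all counts in members, the rRNAs 2.09%, the 6 mRNAs in or between the chromosome 1 copies (mt-Co2, mt-Atp8, mt-Atp6, mt-Co3, mt-Nd3 and mt-Nd4l, called the 6 low mRNAs here) 0.653%, mt-Nd6 0.0553% and the tRNAs 0.0483%. Compared per length, mt-Co1, the catalytic subunit of cytochrome c oxidase, was highest at 17463 ± 3921 CPM per kilobase (mean ± SD, n = 23). It was followed by mt-Cytb at 11946 ± 2762, the cytochrome b of complex III, and by mt-Nd1 at 9672 ± 2656, mt-Nd2 at 4804 ± 1023, mt-Nd4 at 3500 ± 762 and mt-Nd5 at 2341 ± 741 CPM per kilobase, which are membrane-arm subunits of complex I. Each of these 6 exceeded the next in at least 22 of the 23 libraries.

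The rRNAs came next, with mt-Rnr1 (small ribosomal subunit) at 563 ± 184 and mt-Rnr2 (large subunit) at 526 ± 153 CPM per kilobase, which did not separate (mt-Rnr1 higher in 17 of 23 libraries). These are levels in the prepared libraries and not in cells, and the part of library preparation in the place of the rRNAs was not tested. Below the rRNAs lay mt-Co2 at 210 ± 86.3, mt-Co3 at 174 ± 70.5, mt-Atp6 at 152 ± 63.4 and mt-Atp8 at 119 ± 47.5 CPM per kilobase. The lowest mRNAs were mt-Nd6 at 71.7 ± 76.5, mt-Nd4l at 45.01 ± 22.1 and mt-Nd3 at 34.4 ± 15.7, whose order was not stable (mt-Nd6 above mt-Nd4l in 12 libraries and mt-Nd4l above mt-Nd3 in 16 of 23). mt-Co1 thus lay far above mt-Co2 per length in all 23 libraries, although both encode core subunits of the same complex. The low levels coincided with the shared sequence described above, as 5 of the 6 low mRNAs had over 95% of their words in nuclear copies. The other, mt-Atp8, had no shared word. The part of the copies in these levels was not tested. Complex V, for which both members are among the 6 low mRNAs, and mt-Co2 and mt-Co3 of complex IV are reported as uncertain.

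**Figure D2:**
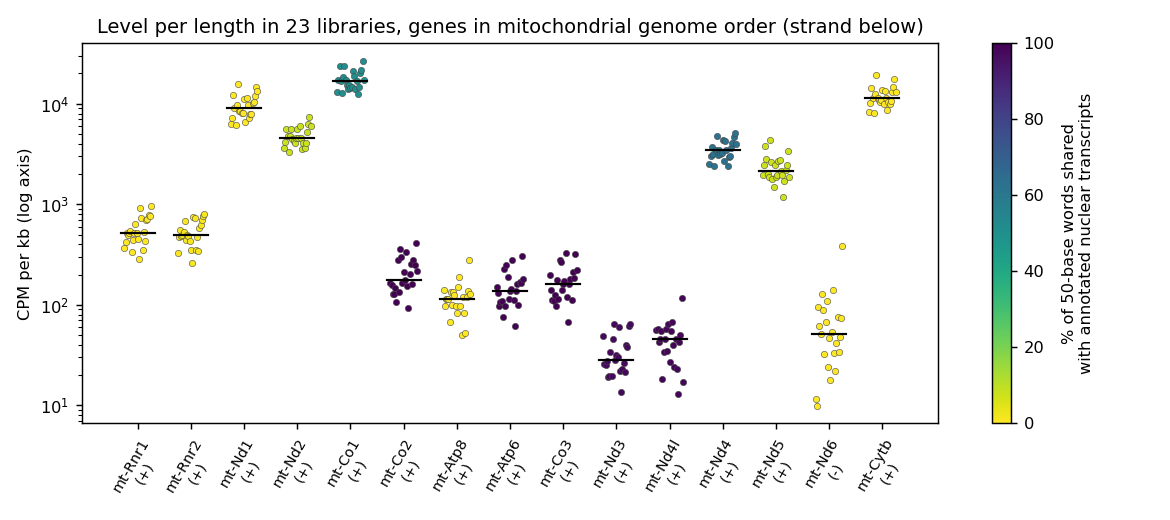
Level of the 13 mRNAs and 2 rRNAs in CPM per kilobase (y axis, log scale), in the order of the genes on the mitochondrial genome (x axis, strand in brackets), with 1 dot per library (23), a black line at the median and the colour giving the share of 50-base words also found in nuclear transcripts. The block from mt-Co2 to mt-Nd4l lies at or below 417 CPM per kilobase in every library, while its neighbours mt-Co1 and mt-Nd4 lie at or above 2387.

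Counts of the pseudogenes themselves were of the size of those of the low mRNAs. The ratio of mt-Co2 to Gm28661 counts had a median of 0.946 (lowest library 0.789, highest 1.17), that of mt-Co3 to Gm28437 1.10 (1.01 to 1.57), and that of mt-Atp6 to Gm10925 0.515 (0.419 to 0.668). It was 0.714 (0.395 to 1.52) for mt-Nd3 and Gm28438, and 0.824 (0.619 to 1.17) for mt-Nd4l and Gm10222. For the genes with a partial copy it was far higher, at 198 for mt-Co1 and Gm29216 and 102 for mt-Nd4 and Gm28439. Across the 23 libraries the summed CPM of the 6 low mRNAs followed that of the 7 copies (log2 scale, Pearson r = 0.976, Spearman rho = 0.958, permutation p = 1e-05 for each, the smallest that the resamples can give, adjusted 2e-05). It remained at r = 0.962 without the 2 libraries farthest from the median and was 0.974 among the 18 female libraries. Against the 6 abundant mRNAs the same sum gave other values (r = 0.379, permutation p = 0.0742, rho = 0.254, permutation p = 0.241), with r = 0.157 without the 2 farthest libraries, so that this relation rests on those. These 2 relations were the only ones computed, all points of a library share its depth and scaling, and the difference between the correlations was not tested. The low mRNAs other than mt-Atp8 share nearly all of their sequence with the chromosome 1 copies. A close relation to the copies was thus largely fixed in advance, and it does not show from which of them the reads came.

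**Figure D3:**
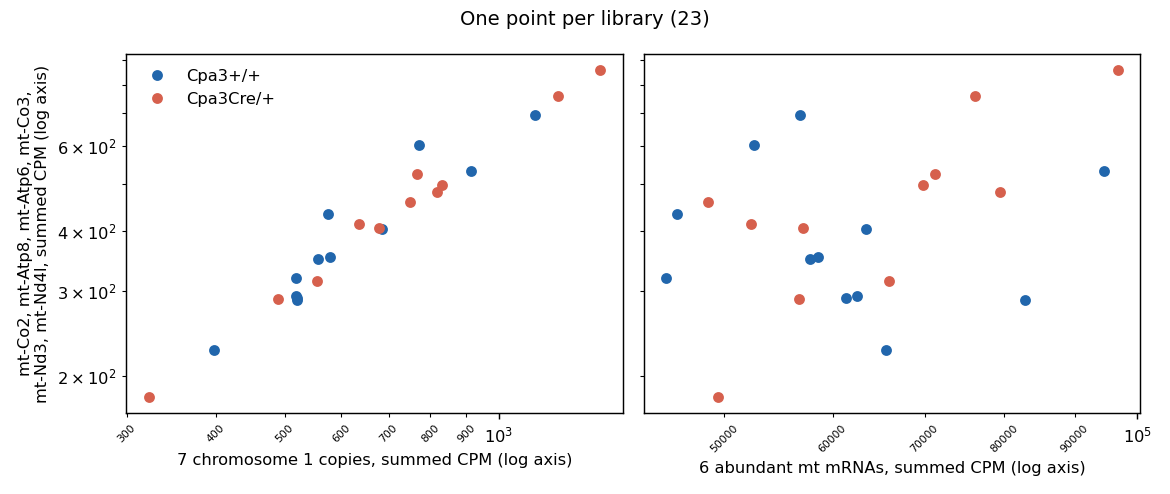
Summed CPM of mt-Co2, mt-Atp8, mt-Atp6, mt-Co3, mt-Nd3 and mt-Nd4l (y axis, log scale) against the summed CPM of the 7 chromosome 1 copies (left) and of the 6 abundant mitochondrial mRNAs (right, both log scales), 1 point per library, blue Cpa3+/+ and red Cpa3Cre/+. Points lie close to a line on the left (r = 0.976), where nearly all sequence of the low mRNAs other than mt-Atp8 is shared with the copies. They scatter on the right (r = 0.379).

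Of the 22 tRNAs, which read the codons of the mitochondrial mRNAs, 9 had no count in any library. All tRNAs together held 9442 counts over the 23 libraries. The 4 with the highest mean were mt-Tm (methionine) at 13.4 CPM with a range of 2.14 to 26.0, mt-Ti (isoleucine) at 6.39 (1.86 to 11.8), mt-Tw (tryptophan) at 4.65 (1.83 to 20.0) and mt-Tl1 (a leucine tRNA) at 3.91 (1.47 to 10.7). In Cpa3+/+ day 1 replicate 2 mt-Tm and mt-Ti were at their lowest of all libraries and mt-Tw, mt-Tl1 and mt-Tt (threonine, 13 CPM) at their highest.

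Within the mRNAs, complex IV took 35.1% to 46.0% of the counts, complex I 33.8% to 40.4%, complex III 19.7% to 24.3% and complex V 0.0983% to 0.340%. Complex IV was above complex I except in Cpa3+/+ day 5 replicate 2 (35.1% against 40.4%) and Cpa3Cre/+ day 5 replicate 3 (38.4% against 40.0%), and the mean of the Cpa3+/+ day 5 group was 38.2% for IV and 38.8% for I. The share of complex III, which is mt-Cytb alone, was 20.1%, 20.0% and 19.8% in Cpa3+/+ naive libraries, 20.9% and 20.4% in immunized ones, 21.9%, 23.3% and 21% on day 1, 21.7% and 22.4% on day 3, and 21.5% and 24.3% on day 5. In Cpa3Cre/+ it was 21.3% and 19.7% in naive libraries, 19.9% and 20.1% in immunized ones, 20.7% and 23.3% on day 1, 21.2% and 20.8% on day 3, and 21.1%, 20.7% and 21.4% on day 5. Every challenged library thus lay above the immunized libraries of its genotype, and so did Cpa3Cre/+ naive replicate 1. The difference was 1.62 percentage points on day 5 (exact permutation p = 0.0167, the smallest that 60 arrangements allow, adjusted p = 0.519), 1.68 on day 1 (exact permutation p = 0.0333, adjusted p = 0.519) and 1.17 on day 3 (exact permutation p = 0.0556, adjusted p = 0.519), comparisons that share the immunized libraries. Leaving out 1 library gave 0.915 (without Cpa3+/+ day 5 replicate 2) to 2.32 points on day 5 and 1.03 (without Cpa3Cre/+ day 1 replicate 2) to 2.34 points on day 1. The share of complex IV was 3.65 points lower on day 5 (39.8% against 43.4%, exact permutation p = 0.05, adjusted p = 0.519), and 2.13 points lower without Cpa3+/+ day 5 replicate 2.

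The quotient of mt-Nd5, the last complex I gene on the plus strand, to mt-Cytb, which follows it in the genome, was singled out after its values were seen and is given without a test. It was 0.315 to 0.422 in naive libraries, 0.378 to 0.394 in immunized libraries and 0.189 to 0.371 in challenged libraries. All 4 immunized libraries were above all challenged ones, and naive Cpa3Cre/+ libraries (0.315 and 0.327) lay within the range of the challenged ones.

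The ratio of mt-Rnr1 to mt-Rnr2 counts was 0.301 in Cpa3+/+ day 1 replicate 2 and 0.540 to 0.805 in the other libraries. That library also had the lowest sum of nuclear-retained RNAs (259 CPM, with a highest sum of 1229) and the highest sum of blood markers (315 CPM), and their part in the ratio was not tested. The rRNAs took 0.0815% to 0.197% of the counts. On day 5 the 3 Cpa3Cre/+ libraries (0.188%, 0.197% and 0.167%) were above both Cpa3+/+ libraries (0.134% and 0.110%), and on day 3 (0.161% and 0.172% against 0.131% and 0.135%) the order was the same. In the naive, immunized and day 1 states the genotypes overlapped, and the average difference over states was 0.0236 percentage points (permutation p = 0.0607, adjusted p = 0.519). Leaving out 1 library gave 0.0144 (without Cpa3Cre/+ naive replicate 2) to 0.0328 points.

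mt-Nd6 varied most among the mRNAs, from 5.12 to 198 CPM (36 to 2104 counts). Its Cpa3+/+ levels were 5.95, 5.12 and 49.5 CPM in naive, 32 and 26.7 in immunized, 66.2, 46.6 and 16.9 on day 1, 35.3 and 56.2 on day 3, and 12.6 and 24.0 on day 5. In Cpa3Cre/+ mice they were 9.27 and 27.9 CPM in naive, 73.7 and 17.3 in immunized, 11.5 and 21.5 on day 1, 39.1 and 17.6 on day 3, and 24.9, 38.3 and 198 on day 5. Naive libraries included the lowest values, and the genotypes overlapped in every state but day 5. The within-group SD of mt-Nd6 was 1.18 on the log2 scale, and 99.6% of the genes tested had a lower one, whereas 18.8% had a lower one than mt-Nd2 (0.24) and 27.7% than mt-Nd4 (0.28).

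**Figure D4:**
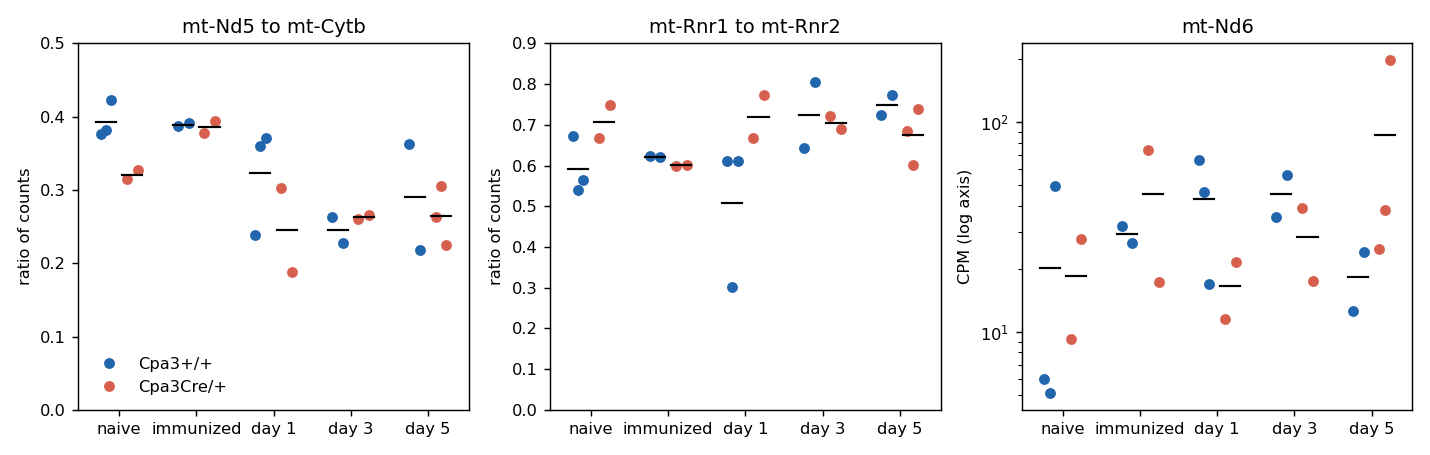
Ratio of counts of mt-Nd5 to mt-Cytb (left), ratio of mt-Rnr1 to mt-Rnr2 (middle) and CPM of mt-Nd6 on a log scale (right), by state (x axes) and genotype (blue Cpa3+/+, red Cpa3Cre/+), 1 dot per library and a black line at the arithmetic group mean. The low rRNA ratio is Cpa3+/+ day 1 replicate 2 (0.301), and the high mt-Nd6 level is Cpa3Cre/+ day 5 replicate 3 (198 CPM).

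For the differences between groups, 1 edgeR model was fitted over 17236 genes with the 10 group means and sex, and a gene was called when its adjusted p was below 0.05. The joint test of any difference among the 10 groups called 0.0928% of all genes (16) and none of the 21 members, of which 6 had an unadjusted p under 0.05 beside 10.8% of all genes (smallest adjusted p = 0.281, for mt-Co3). The question of whether mast cell deficiency went with another mitochondrial RNA level was addressed by the genotype average, which called 0.029% of genes (5) and no member. There 12 of the 13 mRNAs had estimates below 0, with a median log2 fold change of −0.05 beside 0.03 over all genes, and 0 members had an unadjusted p under 0.05 beside 1.12% of all genes. The smallest p were those of mt-Nd5 (−0.21 ± 0.21, adjusted p = 1.0) and mt-Rnr1 (0.15 ± 0.18, adjusted p = 1.0). The joint test of the genotype by state interaction called 0.0% of genes and 0 members in edgeR, with 7 members at an unadjusted p under 0.05 beside 4.91% of all genes.

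Of the genotype comparisons within states, none called any gene (0.0% in each). The unadjusted p was under 0.05 for 0 members in the naive and 0 in the immunized state, 5 on day 1, 2 on day 3 and 9 on day 5, beside 5.34%, 0.951%, 7.39%, 1.55% and 9.26% of all genes. In naive mice the smallest p were those of mt-Co3 (0.58 ± 0.35, adjusted p = 0.900, edgeR) and mt-Co2 (0.61 ± 0.37), and in immunized mice those of mt-Atp8 (−0.85 ± 0.44, adjusted p = 1.0) and mt-Ti (−0.86 ± 0.57). On day 1 they were mt-Tt (−2.48 ± 0.83, adjusted p = 0.635) and mt-Tw (−1.92 ± 0.67), the tRNAs that were highest in Cpa3+/+ day 1 replicate 2, and without that library the estimates were −1.30 and −0.91. On day 3 they were mt-Co3 (−1.0 ± 0.40, adjusted p = 0.9998, edgeR) and mt-Nd3 (−1.08 ± 0.44), while the 6 abundant mRNAs had a median of 0.04.

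On day 5 all 21 members had estimates above 0 in Cpa3Cre/+ against Cpa3+/+ mice, with medians of 0.57 for the mRNAs and 0.87 for the rRNAs beside −0.03 over all genes. By complex the medians were 0.43 for I, 0.31 for III, 0.63 for IV and 0.89 for V. Without Cpa3Cre/+ day 5 replicate 2 the medians were 0.36 for the mRNAs, 0.24 for I, 0.36 for IV and 0.46 for V, and that of III, also lower without this library, was lowest without Cpa3+/+ day 5 replicate 1 (0.15). The smallest p were those of mt-Tl1 (1.56 ± 0.57, adjusted p = 0.524, edgeR) and mt-Rnr2 (0.95 ± 0.36, adjusted p = 0.524), and none passed. mt-Rnr2 was at 681 and 551 CPM in Cpa3+/+ and at 1100, 1210 and 1256 CPM in Cpa3Cre/+ day 5 libraries. These did not overlap, but mt-Rnr2 was chosen for its small p in this comparison. How many of all genes did not overlap was not counted. Nuclear OXPHOS genes and enterocyte markers stood higher in the same groups: 36 of 36 nuclear complex I genes and 10 of 10 enterocyte markers had estimates above 0 (medians 0.78 and 1.09), and the enterocyte sum was 23582 and 26967 CPM in Cpa3+/+ and 44198, 40075 and 99405 CPM in Cpa3Cre/+ day 5 libraries. Their part in the members' estimates was not tested.

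Immunized against naive mice showed no called gene (0.0%), with 5 members at an unadjusted p under 0.05 beside 10.9% of all genes. The smallest p were those of mt-Co3 (−0.84 ± 0.26, adjusted p = 0.377, edgeR) and mt-Nd3 (−0.84 ± 0.29, adjusted p = 0.378). The 6 low mRNAs had a median of −0.64 and the 6 abundant ones of −0.11. In the same comparison smooth muscle markers had a median of −1.16 with 6 of 6 at an unadjusted p under 0.05, B cell follicle markers of 2.77 with 4 of 5, and blood markers of −1.38 with 3 of 5. Muscle markers and the low mRNAs had the same sign in the steps between states, but not in every genotype comparison. Against immunized mice their medians were 0.16 and 0.40 on day 1 and 1.13 and 0.91 on day 3, markers first. On day 5 they were 0.50 and 0.94. For genotype they were at 1.40 and 0.52 in naive and −0.26 and −0.60 in immunized mice, but at 0.80 and −0.02 on day 1, 1.0 and −0.92 on day 3 and −0.42 and 0.73 on day 5 (medians of log2 fold changes, markers first). The part of these markers in the members' estimates was not tested.

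Challenge was compared with immunization, averaged over genotypes, on 3 days that share the immunized libraries. Day 1 called 0.0% of genes and 0 members in edgeR, with 1 member at an unadjusted p under 0.05 beside 3.16% of all genes (mt-Co2, 0.63 ± 0.27) and mt-Co3 next (0.52 ± 0.25). Day 3 also called 0.0% of genes, with 4 members at an unadjusted p under 0.05 beside 9.58% of all genes. mt-Co3 (1.0 ± 0.26, adjusted p = 0.483, edgeR) and mt-Co2 (1.05 ± 0.29, adjusted p = 0.483) had the smallest p. The median was 0.91 for the 6 low mRNAs and 0.15 for the 6 abundant ones. The low mRNAs were not uniform, as they ran from −0.17 to 1.05, with all but mt-Nd4l above 0. The abundant ones ran from −0.44 to 0.33. Among cell type markers on day 3, smooth muscle had a median of 1.13 with 5 of 6 at an unadjusted p under 0.05, B cell follicle of −4.25 with 5 of 5, and mast cell of 2.56 with 5 of 5. Their part was not tested.

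Day 5 was the only challenge day with called genes, 1.94% of all (334), and none of the 21 members was among them by edgeR. All 13 mRNAs had estimates above 0, with a median log2 fold change of 0.63 beside 0.02 over all genes, and 7 had an unadjusted p under 0.05 (17.3% of all genes did). The medians by complex were 0.63 for I, 0.55 for III, 0.99 for IV and 0.74 for V, and 0.35 for the rRNAs. The value for complex IV is that of mt-Co2, and mt-Co3 is close to it, both reported as uncertain. mt-Co1, which holds most of the counts of the complex, was at 0.31 ± 0.29, and the share of complex IV among mRNA counts was lower on day 5 than in immunized libraries. mt-Co3 (0.99 ± 0.26, adjusted p = 0.0608) and mt-Nd3 (1.10 ± 0.30, adjusted p = 0.0644) came closest to the threshold. Both are among the members that share nearly all of their sequence with chromosome 1.

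In single libraries mt-Co3 was at 85.2 and 97.3 CPM in Cpa3+/+ immunized mice and at 110 and 128 CPM on day 5, and at 94.5 and 53.3 CPM in Cpa3Cre/+ immunized mice and at 144, 251 and 173 CPM on day 5. The groups did not overlap in either genotype. On day 3 it was higher in Cpa3+/+ (218 and 207 CPM) than in Cpa3Cre/+ mice (87.5 and 167 CPM), and on day 1 it was 75.7, 139 and 89.9 CPM in Cpa3+/+ and 125 and 142 CPM in Cpa3Cre/+ mice. The naive libraries, at 155, 111 and 87.9 CPM in Cpa3+/+ and at 136 and 258 CPM in Cpa3Cre/+ mice, overlapped with those of day 5. mt-Nd3, a small complex I subunit, was at 9.67 and 6.65 CPM in Cpa3+/+ immunized mice and at 9.90 and 11 CPM on day 5, and at 7.72 and 4.73 CPM in Cpa3Cre/+ immunized mice and at 13.2, 21.4 and 22.3 CPM on day 5. Its groups did not overlap either, though those of Cpa3+/+ nearly touched.

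mt-Co1, which carries most of the counts of complex IV, was at 23040 ± 4508 CPM in Cpa3+/+ immunized (SD, n = 2) and 22965 ± 1101 CPM on day 5 (n = 2), and at 25329 ± 5218 CPM in Cpa3Cre/+ immunized (n = 2) and 34000 ± 7363 CPM on day 5 (n = 3). Its groups overlapped in both genotypes. mt-Cytb was at 11254 ± 2685 CPM in Cpa3+/+ immunized and 13991 ± 2146 CPM on day 5. In Cpa3Cre/+ it was at 11602 ± 2254 CPM in immunized and 17402 ± 2602 CPM on day 5. The Cpa3Cre/+ groups did not overlap, with the same limit of few libraries.

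The count of 0 members on day 5 turned on the test and on single libraries. DESeq2 called 5 of 20 members (mt-Co2, mt-Co3, mt-Nd2, mt-Nd3 and mt-Nd4) beside 5.78% of all genes, and edgeR without the filter on low counts called 4 (mt-Atp6, mt-Co2, mt-Co3 and mt-Nd3) beside 2.83%. Without Cpa3+/+ naive replicate 1 or without Cpa3+/+ naive replicate 3 edgeR called 2 members (mt-Co3 and mt-Nd3 in each case), without Cpa3+/+ day 1 replicate 2 it called 3 (mt-Co2, mt-Co3 and mt-Nd3), and without Cpa3Cre/+ day 5 replicate 3 it called 2 (mt-Co2 and mt-Co3). These shares of all genes were 1.52%, 1.46%, 3.62% and 7.63%. Without both libraries that stood apart it called 4 members (mt-Atp6, mt-Co2, mt-Co3 and mt-Nd3) beside 12.4%. Away from day 5, edgeR without the filter called 3 members for genotype on day 1 (mt-Nd6, mt-Tt and mt-Tw; 0.727% of all genes), 4 for genotype on day 5 (mt-Nd6, mt-Tm, mt-Tp and mt-Tq; 1.45%), 4 for immunized against naive (mt-Co3, mt-Nd6, mt-Tp and mt-Tq; 1.8%) and 4 for day 3 (mt-Atp6, mt-Co2, mt-Co3 and mt-Nd3; 0.886%). It called 13 members for any difference among groups (7.86% of all genes) and 10 for the interaction (3.14%), where mt-Tp and mt-Tq rest on 83 and 77 counts in all. DESeq2 called 4 members for any difference (mt-Co2, mt-Co3, mt-Nd2 and mt-Nd3; 5.51%), and edgeR without both libraries that stood apart called 1 (mt-Co2; 1.55%).

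**Figure D5:**
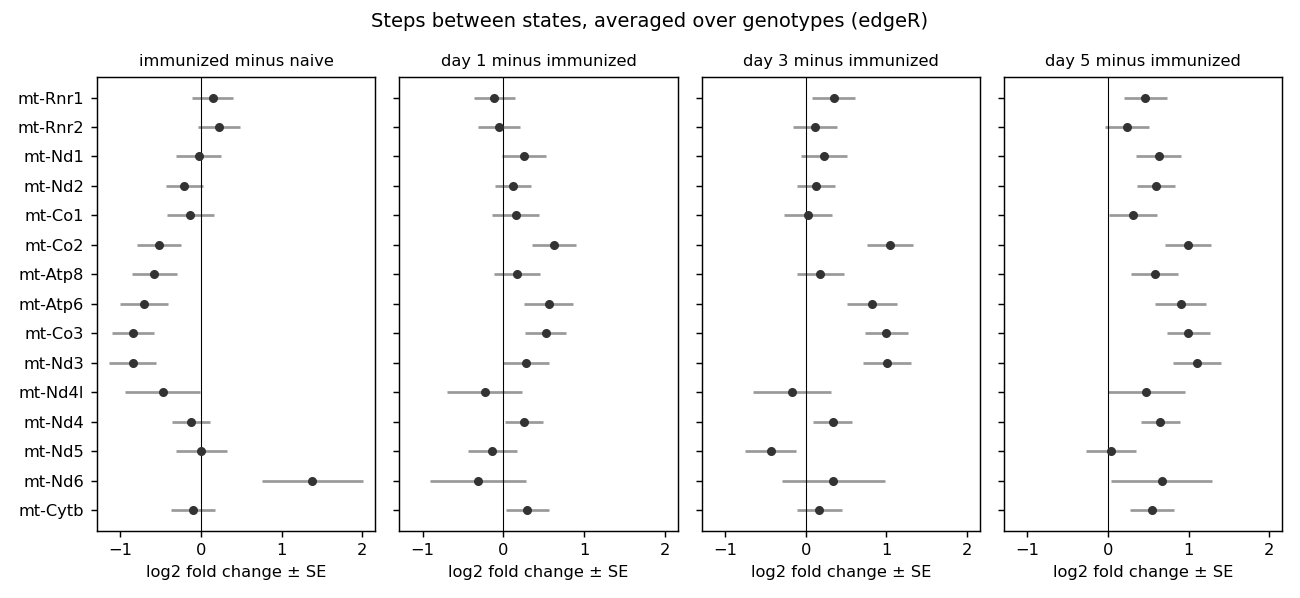
Log2 fold change ± SE (x axes, edgeR, averaged over genotypes) of the 13 mRNAs and 2 rRNAs in genome order (y axis) for immunization (left) and for challenge days 1, 3 and 5 against immunized. mt-Co2, mt-Atp6, mt-Co3 and mt-Nd3 lie below 0 on the left and, on days 3 and 5, farther above 0 than the other genes, whereas mt-Atp8 lies among the others on both days; no gene in the plot passed the test.

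The nuclear copies gave much the same estimates. On day 5 against immunized, Gm28438 (1.03 ± 0.23, adjusted p = 0.0303) and Gm28437 (0.96 ± 0.24, adjusted p = 0.0491) were called by edgeR and the other 5 of the 7 copies were not. Their estimates ran from 0.30 for Gm10222 to 0.94 for Gm28661. Gm28438 is the copy of mt-Nd3 and Gm28437 that of mt-Co3, so reads of the called pseudogenes and of the members nearest to the threshold cannot be told apart by most of their sequence.

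The nuclear partners of the members were examined in lists of genes. The 12 comparisons called 0.0% to 1.94% of all genes, so at that rate few calls or none would fall in lists of this size. None of the 75 nuclear OXPHOS subunit genes (36 of complex I, 4 of II, 9 of III, 11 of IV and 15 of V) was called in any comparison. On day 5 against immunized their medians were 0.10 for complex I, 0.14 for II, −0.13 for III, 0.15 for IV and 0.10 for V, beside 0.02 over all genes, with 7 of 36, 0 of 4, 4 of 9, 0 of 11 and 3 of 15 at an unadjusted p under 0.05. Over all genes 17.3% had an unadjusted p under 0.05. Of 14 genes of mitochondrial DNA transcription and replication 1 was called by edgeR, Ssbp1 (0.57 ± 0.14, adjusted p = 0.0494), the single-strand binding protein of mitochondrial DNA. The median of this list was 0.35, with 8 of 14 at an unadjusted p under 0.05. Of 20 genes of mitochondrial RNA processing and stability 1 was called by edgeR, Lrpprc (0.53 ± 0.13, adjusted p = 0.0469), which stabilises mitochondrial mRNAs. The median of this list was 0.36, with 9 of 20 at an unadjusted p under 0.05. None of 7 regulators of mitochondrial biogenesis (median −0.04) and none of 11 other mitochondrial proteins (median 0.33) was called. Of these, 1 of 7 and 4 of 11 had an unadjusted p under 0.05. Of the cell type markers, those of mast cells had the only called genes in this comparison, as Mcpt1 (3.14 ± 0.54, adjusted p = 0.0105), Mcpt2 (3.31 ± 0.58, adjusted p = 0.0118) and Fcer1a (3.06 ± 0.69, adjusted p = 0.0317) rose by edgeR, with 5 of 5 at an unadjusted p under 0.05 and a median of 3.06. B cell follicle markers had a median of −2.58 with 5 of 5 at an unadjusted p under 0.05, smooth muscle markers of 0.50 with 0 of 6, and enterocyte markers of −0.34 with 0 of 10. Their part in the members' estimates was not tested.

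The 13 mitochondrial mRNAs summed to 1.96 to 5.41 times the CPM of the 75 nuclear subunit genes. In Cpa3+/+ mice the quotient was 3.85 and 2.74 in immunized and 4.10 and 3.94 in day 5 libraries, and in Cpa3Cre/+ mice 3.13 and 2.31 in immunized and 4.29, 5.41 and 1.96 in day 5 libraries. The lowest and the highest value of all 23 libraries were thus replicates of 1 group. Cpa3Cre/+ day 5 replicate 3 had the highest nuclear OXPHOS sum (35943 CPM, the next being 24724 CPM) and the highest enterocyte sum, while its summed mitochondrial mRNAs (70499 CPM) lay within the range of the other libraries.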

How the data were processed

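The authors deposited raw read counts per Ensembl gene for 23 libraries, which came from total RNA and a stranded Illumina kit, per the labels' protocols. The alignment used STAR and the mouse genome (mm10, GRCm38), and reads were assigned with featureCounts of Subread 1.5.1, per the submitters' processing notes. Symbols and positions came from GENCODE vM21 (GRCm38) by identifier for 55141 of 55487 genes. Groups followed the titles and treatment labels.

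Genes were filtered with edgeR's filterByExpr by group, scaled with TMM factors and tested with edgeR 4.0.16 in R 4.3.3 (robust quasi-likelihood F tests, 12 residual degrees of freedom, biological coefficient of variation 28.6%). P-values were two-sided and adjusted by Benjamini-Hochberg over 17236 genes. SE, which is approximate, was obtained by dividing the size of the log2 fold change by the square root of F. CPM use the TMM factors, and shares use the deposited counts. Shares were compared with exact permutation tests that keep genotype or state and do not adjust for sex. Sequences were aligned with Biopython 1.88 (match 2, mismatch -3, gap -5 and -2). The edgeR model was tested on simulated data for the genotype average only, with changes larger than the members' estimates in that comparison. The alternatives were DESeq2 1.42.0 as test or for size factors, scaling on nuclear genes, no filter, no sex term, female libraries, a replicate block, other denominators or log2 for shares, and leaving out libraries.

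Named with fold changes are called members or, where none was called, the 2 with the smallest p. Other named members, ratios and the libraries that stood apart were chosen after their values were seen. The members and lists were chosen with earlier results of these data known. The promoters and proteins of the members were not used here.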

Additional observations from a re-analysis of the deposited data

Results flagged for a closer look

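Over 36 combinations of a share or ratio and a step between states, 3 had every Cpa3+/+ library on one side and every Cpa3Cre/+ library on the other side of the mean of its own genotype at the start of the step. The difference between the genotypes was not tested in any of them. From naive to immunized, the share of mitochondrial mRNA counts in complex III changed by 0.708 percentage points in Cpa3+/+ (n = 2) and by -0.510 points in Cpa3Cre/+ mice (n = 2), a difference of -1.2178. In the same step the share of complex IV changed by -1.73 points in Cpa3+/+ and 0.410 points in Cpa3Cre/+ mice, a difference of 2.1382. From immunized to day 5, the share of complex V, whose members lie in or between the nuclear copies, changed by -0.0126 points in Cpa3+/+ (n = 2) and 0.0940 points in Cpa3Cre/+ mice (n = 3), a difference of 0.1066. Groups of this size were too small to look for single outlying libraries.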

How the results depend on the processing

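With DESeq2 size factors, scaling on nuclear genes or no sex covariate, 0 members were called in all 12 comparisons, and the medians by complex kept their size. With female libraries, which leave a single library in some groups, the medians kept their size except for 2. The replicate numbers did not pair the libraries (correlations of same-numbered libraries from -0.31 to 0.56), and with the replicate number as a block 0 members were called. The shares of all genes called under these settings are not given here. In the main fit they were 0.0% to 1.94%, so these counts of 0 say little about the members. Without the filter on low counts, every member with a count was tested. There 3 members were called for genotype on day 1 (0.727% of all genes), 4 for genotype on day 5 (1.45%) and 4 for immunized against naive (1.8%). It also called 4 for day 3 (0.886%), 4 for day 5 (2.83%), 13 for any difference (7.86%) and 10 for the interaction (3.14%). DESeq2 called 5 members for day 5 (5.78% of all genes) and 4 for any difference (5.51%). Leaving out 1 library gave 0 to 3 for day 5, and in the fits that called a member 1.46% to 7.63% of all genes were called. Without both libraries that stood apart, an alternative chosen after seeing the data, 4 were called for day 5 (12.4%) and 1 for any difference (1.55%). There the genotype difference in the log2 ratio of mt-Nd6 turned to -0.18. The cause was not tested.

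No value that turned its sign had passed a test. With female libraries only these were mt-Co3 by genotype in naive mice (-0.058), the rRNA share on day 1 (0.0143), the complex III share at immunization (-0.282), the complex IV share on day 1 (0.340), the complex V share by genotype (-0.026), the log2 ratio of rRNA to mRNA on day 5 (0.0073), and the log2 ratio of mt-Nd6 by genotype (-0.041), on day 3 (0.77) and on day 5 (0.038). Leaving out 1 library gave -0.071 to 0.35 for mt-Rnr1 by genotype. It gave -0.0341 to 0.00969, -6.01e-05 to 0.0437 and -0.0205 to 0.0255 points for the rRNA share on day 1, day 3 and at immunization. It gave -0.620 to 1.35 and -0.557 to 0.232 for complex I on day 3 and by genotype, -0.307 to 0.505 for complex III at immunization, -2.25 to 0.275 for complex IV on day 1 and -0.00633 to 0.0109 for complex V by genotype. The log2 ratio of rRNA to mRNA ran from -0.050 to 0.26 on day 3 and -0.31 to 0.0073 on day 5, and that of mt-Nd6 from -0.44 to 0.40, -0.88 to 0.038 and -0.17 to 0.20 on day 3, on day 5 and by genotype. Groups of 2 or 3 libraries limit every comparison, and low counts, whose cause was not tested, limit those of the tRNAs.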
